A study of Mus musculus with 8 samples.

Results

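The genes described here are 9 components of the interferon-gamma (IFN-γ) receptor pathway and its relatives: the receptor chains Ifngr1 and Ifngr2, the Janus kinases Jak1 and Jak2, and the transcription factors Stat2, Stat3, Stat5a, Stat5b and Stat6. They were chosen by name, with earlier results of these data known, from the 45556 named genes of the deposited count table. All 9 were found, and all 9 passed the filter on low counts that left 13500 genes for testing. The cells were B16F10, an established mouse melanoma line, and all groups share it. The labels give 2 genotypes: pLKO, the name of a lentiviral vector for short hairpins, and shDRG2, a hairpin named for Drg2, a gene for a GTP-binding protein. Each was left without stimulation or given recombinant mouse IFN-γ at 5 ng/ml for 24 h. The 4 groups have 2 libraries each. The labels name 1 line of each genotype, so a difference between pLKO and shDRG2 is a difference between these 2 lines. Whether replicates came from separate cultures is not stated, and p-values then measure only the spread between these libraries.

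IFN-γ binds a receptor made of ligand-binding IFNGR1 chains and signal-transducing IFNGR2 chains. JAK1 sits on the first chain and JAK2 on the second, and ligand binding lets the kinases phosphorylate each other and the receptor, which then recruits STAT proteins that move to the nucleus and bind DNA. STAT2 is best known as the partner of IRF9 in the complex that binds interferon-stimulated response elements (ISRE) downstream of type I interferon. STAT3 is the main factor downstream of IL-6 family cytokines, STAT5A and STAT5B act downstream of growth hormone, prolactin and several interleukins, and STAT6 acts downstream of IL-4 and IL-13. In melanoma cells this pathway controls antigen presentation and the checkpoint ligand PD-L1, and loss of its receptor or kinases is a known route of escape from immune attack.

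Library totals ran from 25422758 to 36654519 counts. Levels are given as CPM, the count relative to the TMM-adjusted library size, in the order replicate 1, replicate 2. A gene is called changed when its adjusted p from edgeR's quasi-likelihood test over the 13500 genes is under 0.05. Drg2, the targeted gene, had 76.3 and 68.6 CPM in pLKO libraries against 8.67 and 9.34 CPM in shDRG2 libraries, and with IFN-γ 72.2 and 64.3 against 6.46 and 7.66 CPM. All 18 of a list of known IFN-γ-driven genes rose in each line, beside 15.4% of all genes in pLKO and 16.2% in shDRG2 cells. That list was chosen with earlier results of these data known, so the count is not an independent check of the stimulus. All 7 melanocyte markers were at 1 CPM or more in every group, with a summed level between 9618 and 14939 CPM. With IFN-γ 4 of the 7 fell in pLKO and 6 in shDRG2 cells, beside 12.7% and 15.2% of all genes called lower. Summed immune markers stayed at or under 1.19 CPM, with Cd3e, Itgam and Adgre1 at 0 in all 8 libraries. Summed epithelial markers stayed at or under 0.688 CPM, with Epcam and Krt18 at 0 in all libraries. Summed endothelial markers were at 1.5 to 2.16 CPM in pLKO and 5.04 to 5.97 CPM in shDRG2 cells without IFN-γ, and at or under 0.699 CPM with it, with Cdh5 and Kdr at 0 in all libraries. Of 6 fibroblast markers 1 reached 1 CPM, with a summed level of 4.20 to 5.74 CPM with IFN-γ and 15.8 to 19.5 CPM without it. The part of these markers in the results was not tested.

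The promoters below are those of the 3 members that rose most with IFN-γ and of the 1 that fell in both lines, so that their letters can be read beside the responses. They are the 250 bases before the RefSeq start of the gene (GRCm38.p6, the same assembly as mm10), written 5′ to 3′ on the strand of the gene. For Stat2, Jak2 and Ifngr2 that start was not found in a transcript of GENCODE, the annotation that gives the gene positions below. Capitals mark matches on either strand to the ISRE letters (GAAA, any 2 bases, GAAA), to the letters of a gamma-activated site (GAS, TTCNNNGAA) or to GAS letters with a wider gap (TTC and GAA with 4 bases between).

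Stat2, chr10:128270248-128270497, plus strand: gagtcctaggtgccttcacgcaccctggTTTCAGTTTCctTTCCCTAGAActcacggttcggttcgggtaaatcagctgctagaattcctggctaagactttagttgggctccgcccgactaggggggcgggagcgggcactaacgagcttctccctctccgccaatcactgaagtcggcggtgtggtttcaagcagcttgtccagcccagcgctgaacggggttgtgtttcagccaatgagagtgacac

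Stat3, chr11:100939541-100939790, minus strand: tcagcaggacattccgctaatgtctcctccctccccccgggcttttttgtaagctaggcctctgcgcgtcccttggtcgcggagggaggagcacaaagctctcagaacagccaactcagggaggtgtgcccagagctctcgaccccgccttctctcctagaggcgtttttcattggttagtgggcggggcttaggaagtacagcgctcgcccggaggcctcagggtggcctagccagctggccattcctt

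Jak2, chr19:29251553-29251802, plus strand: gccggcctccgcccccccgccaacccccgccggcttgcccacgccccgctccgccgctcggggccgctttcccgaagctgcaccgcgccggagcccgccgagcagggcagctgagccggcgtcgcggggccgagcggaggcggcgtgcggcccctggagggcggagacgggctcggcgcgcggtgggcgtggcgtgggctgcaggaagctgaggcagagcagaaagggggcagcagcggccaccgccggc

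Ifngr2, chr16:91546809-91547058, plus strand: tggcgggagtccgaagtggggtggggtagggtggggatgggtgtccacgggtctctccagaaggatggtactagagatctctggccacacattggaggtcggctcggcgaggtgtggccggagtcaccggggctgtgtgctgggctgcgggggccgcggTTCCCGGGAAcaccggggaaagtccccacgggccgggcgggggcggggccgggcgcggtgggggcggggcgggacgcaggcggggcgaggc

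The Stat2 window held an ISRE match, TTTCAGTTTC on this strand, starting 222 bases before the RefSeq start. It also held a wide-gap GAS match, TTCCCTAGAA, starting 210 bases before that start. These matches do not overlap. The Ifngr2 window held a wide-gap GAS match, TTCCCGGGAA, starting 91 bases before the RefSeq start. No match to any of the 3 patterns was found in the Stat3 and Jak2 windows, or in the 7 windows of the other 5 members. Over all 32851 RefSeq promoter windows of this length, 2.98% held the ISRE letters, 7.02% the GAS letters and 5.85% the wide-gap letters. The search with the wider gap was added after the responses were known. No window of any member held the GAS letters with the usual gap. A match is a run of letters and not a measured binding site, and its part in the responses was not tested.

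The receptor chains did not rise with IFN-γ. Ifngr2 (ENSMUSG00000022965.8, chromosome 16, 91547072 to 91565623, plus strand) had 45.4 and 52.1 CPM in unstimulated pLKO cells and 34.2 and 37 CPM after IFN-γ. Its shDRG2 libraries were at 58.4 and 54.9 CPM, and after IFN-γ at 40.0 and 39.1 CPM. In both lines the stimulated libraries lay below the unstimulated ones without overlap. Ifngr2 fell 1.37-fold in pLKO cells (log2 fold change -0.45, SE 0.0903, adjusted p = 0.00394). The fall in shDRG2 cells was 1.43-fold (-0.52, SE 0.0896, adjusted p = 0.00141). These are levels in bulk RNA, in which fewer expressing cells and less RNA per cell cannot be told apart. Ifngr1 (ENSMUSG00000020009.13, chromosome 10, 19591949 to 19610229, plus strand), the ligand-binding chain, had 11.1 and 10.8 CPM in unstimulated pLKO cells and 9.41 and 10.5 CPM after IFN-γ. The shDRG2 libraries had 11.8 and 11.7 CPM, and 10.2 and 11.6 CPM after IFN-γ. Its values pointed down in both lines, at -0.13 (95% interval -0.40 to 0.13, adjusted p = 0.464) and -0.11 (-0.37 to 0.16, adjusted p = 0.547), and neither passed the test.

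Both kinases rose. Jak1 (ENSMUSG00000028530.14, chromosome 4, 101152367 to 101265282, minus strand), the kinase that serves IFNGR1 and many other cytokine receptors, went from 139 and 144 CPM to 216 and 212 CPM in pLKO cells. The shDRG2 libraries went from 143 and 146 CPM to 203 and 185 CPM. Jak1 rose 1.51-fold in pLKO (log2 0.60, SE 0.0749, adjusted p = 0.000194). Its rise in shDRG2 cells was 1.34-fold (0.42, SE 0.0749, adjusted p = 0.00160). Jak2 (ENSMUSG00000024789.13, chromosome 19, 29251828 to 29313080, plus strand), the kinase bound to IFNGR2, went from 49.9 and 52.2 CPM to 94.6 and 99.0 CPM in pLKO cells. The shDRG2 libraries went from 51.2 and 55.8 CPM to 103 and 95.6 CPM. That is a 1.90-fold rise in pLKO (0.92, SE 0.0799, adjusted p = 1.28e-05). For shDRG2 it is a 1.86-fold rise (0.89, SE 0.0799, adjusted p = 1.41e-05). For both kinases every stimulated library lay above every unstimulated one. The ratio of Jak2 to Jak1, each per kilobase of exon, was 0.517 and 0.521 in pLKO libraries and 0.629 and 0.672 after IFN-γ. In shDRG2 libraries it was 0.515 and 0.549, and 0.729 and 0.742 after IFN-γ. Jak2 lies 54.4 kb from Cd274, the PD-L1 gene, with 3 protein-coding genes between them. Cd274 rose 25.8-fold in pLKO and 29.6-fold in shDRG2 cells, far above the change of Jak2.

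**Figure D1:**
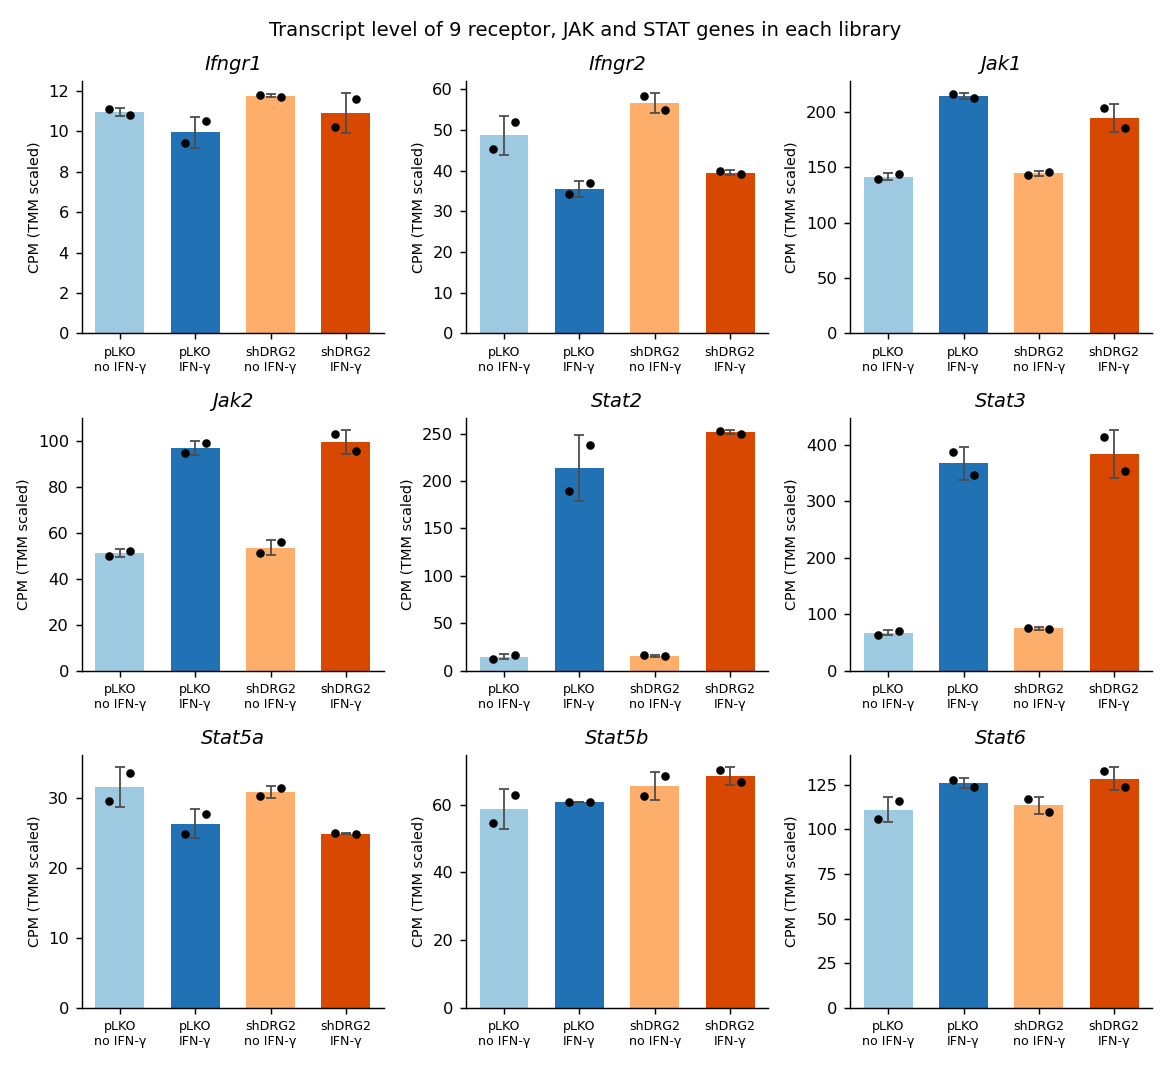
Transcript level in CPM of each of the 9 genes, with 1 panel per gene and its own linear axis from 0. Dots are the 2 libraries of a group, bars their mean and whiskers ± 1 SD. Stat2 climbs from 12.7 to 16.6 CPM without IFN-γ to 189 to 253 CPM with it, while Ifngr2 drops and Ifngr1 and Stat5b stay within narrow ranges.

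Among the STAT genes Stat2 and Stat3 rose steeply. Stat2 (ENSMUSG00000040033.16, chromosome 10, 128270559 to 128292849, plus strand) had 12.7 and 16.6 CPM in unstimulated pLKO cells and 189 and 238 CPM after IFN-γ. The shDRG2 libraries had 16.6 and 14.9 CPM, and 253 and 250 CPM after IFN-γ. The groups with and without IFN-γ stood far apart. Stat2 rose 14.6-fold in pLKO (log2 3.86, SE 0.147, adjusted p = 1.63e-08). Its rise in shDRG2 cells was 15.9-fold (3.99, SE 0.148, adjusted p = 1.23e-08). Stat3 (ENSMUSG00000004040.16, chromosome 11, 100885098 to 100939540, minus strand) had 63.5 and 70.2 CPM in unstimulated pLKO cells and 387 and 346 CPM after IFN-γ. In shDRG2 libraries Stat3 had 76.1 and 73.0 CPM, and 413 and 353 CPM after IFN-γ. It rose 5.48-fold in pLKO (2.46, SE 0.104, adjusted p = 4.03e-08). In shDRG2 cells the rise was 5.13-fold (2.36, SE 0.103, adjusted p = 5.15e-08). The 95% intervals of Stat2 (3.54 to 4.19 in pLKO, 3.67 to 4.32 in shDRG2) lay wholly above those of Stat3 (2.22 to 2.69 and 2.13 to 2.59).

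The STAT5 pair and Stat6 moved little. Stat5a (ENSMUSG00000004043.14, chromosome 11, 100859351 to 100885169, plus strand) had 29.6 and 33.6 CPM in unstimulated pLKO cells and 24.9 and 27.8 CPM after IFN-γ, a value of -0.26 that missed the threshold (interval -0.47 to -0.05, adjusted p = 0.0658). In shDRG2 cells it fell 1.24-fold, from 30.3 and 31.5 CPM to 25 and 24.9 CPM (-0.31, SE 0.0954, adjusted p = 0.0322). That call was lost when any 1 of the 4 libraries was left out, with adjusted p-values of 0.0775 and 0.147 without shDRG2 replicates 1 and 2, and 0.118 and 0.127 without shDRG2 IFN-γ replicates 1 and 2. DESeq2 also missed it (adjusted p = 0.0567), while in pLKO cells Stat5a passed under upper-quartile scaling (adjusted p = 0.0443). It also passed there in a fit with the replicate number as a block, given in the closing section. Stat5b (ENSMUSG00000020919.11, chromosome 11, 100780731 to 100850724, minus strand) had 54.5 and 62.9 CPM in unstimulated pLKO cells and 60.9 and 60.8 CPM after IFN-γ (0.05, interval -0.15 to 0.25, adjusted p = 0.723). In shDRG2 libraries Stat5b had 62.6 and 68.4 CPM, and 70.3 and 66.7 CPM after IFN-γ (0.06, interval -0.13 to 0.26, adjusted p = 0.628). The groups overlapped in both lines. Stat6 (ENSMUSG00000002147.18, chromosome 10, 127642986 to 127660957, plus strand) had 106 and 116 CPM in unstimulated pLKO cells and 128 and 124 CPM after IFN-γ. In shDRG2 libraries Stat6 had 117 and 110 CPM, and 133 and 124 CPM after IFN-γ. Its stimulated libraries were the higher ones in both lines, but 0.18 in each line did not pass (adjusted p = 0.134 and adjusted p = 0.127).

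Stat5a and Stat5b are paralogs with stretches of shared sequence, and their counts are tied to each other in the deposited table. Of the distinct 100-base windows in Stat5a transcripts 3.4% also occur in Stat5b transcripts, and 4.8% the other way round. For 31-base windows the shares are 11.5% and 15.1%. Neither gene had a whole-number estimated count in any of the 8 libraries, yet their sum was whole in 8 of 8, to within 0.003. In pLKO replicate 1, for instance, the estimates were 969.502 and 1785.498, which sum to 2755.000. Reads were thus divided between the genes in part by estimation. When their counts were summed as 1 gene, an analysis chosen after the data were seen, the pair was at -0.05 in pLKO (interval -0.24 to 0.14, adjusted p = 0.711) and -0.04 in shDRG2 cells (-0.23 to 0.14, adjusted p = 0.733). The share of the pair's reads given to Stat5a was 35.2% and 34.8% in pLKO and 29.0% and 31.4% after IFN-γ. In shDRG2 libraries it was 32.6% and 31.5%, and 26.2% and 27.2% after IFN-γ. Stat3 and Stat5a overlap tail to tail on opposite strands by 72 exon bases, which is 0.8% of Stat3 and 1.0% of Stat5a exon bases, and Stat5b lies 8.6 kb from Stat5a. The library strandedness is not stated, so reads in that overlap cannot be assigned to one gene.

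**Figure D2:**
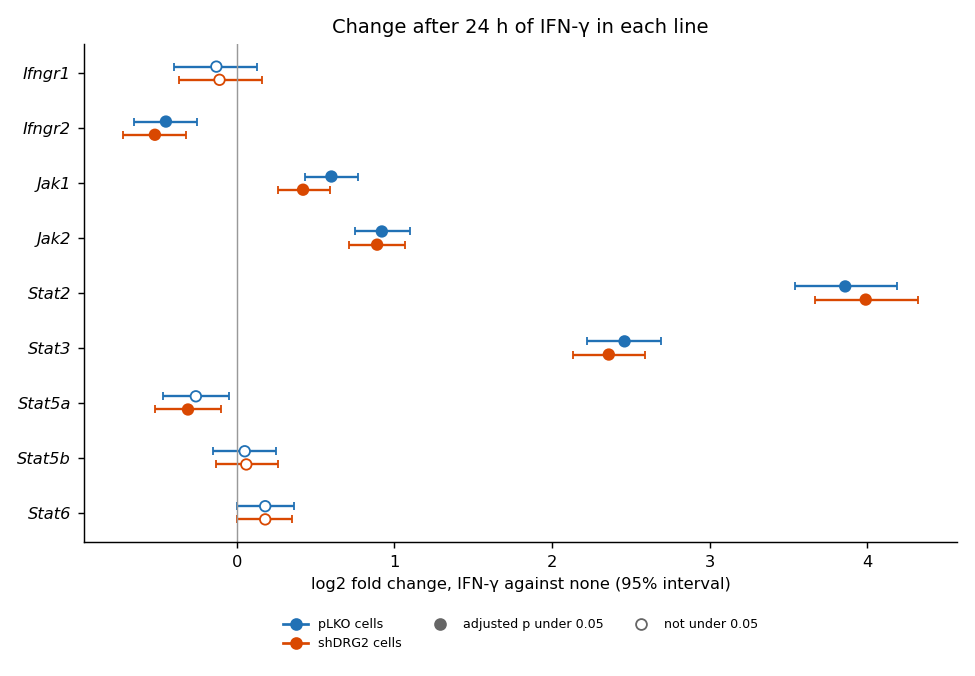
Log2 fold change after IFN-γ for each gene in pLKO (blue) and shDRG2 cells (orange), with 95% intervals from the edgeR fit. Filled points passed the adjusted threshold: Jak1, Jak2, Stat2 and Stat3 to the right of 0 and Ifngr2 to the left in both lines, and Stat5a to the left in shDRG2 cells, where the call was lost without any 1 of the 4 libraries compared.

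Counted together, 4 of the 9 genes rose and 1 fell in pLKO cells. Over all genes 28.1% were called in that comparison, 15.4% higher and 12.7% lower. In shDRG2 cells 4 of the 9 rose and 2 fell, beside 31.4% of all genes, 16.2% higher and 15.2% lower. The median log2 fold change of the 9 was 0.18 in each line, beside 0.01 and 0.00 over all genes. Ranked from the highest of 13500 values, Stat2 was number 250 in pLKO and 258 in shDRG2 cells, and Stat3 was number 384 and 422. Jak2 was number 995 and 1089, and Jak1 number 1545 and 2256. Ifngr2 was number 1564 and 1573 from the lowest.

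**Figure D3:**
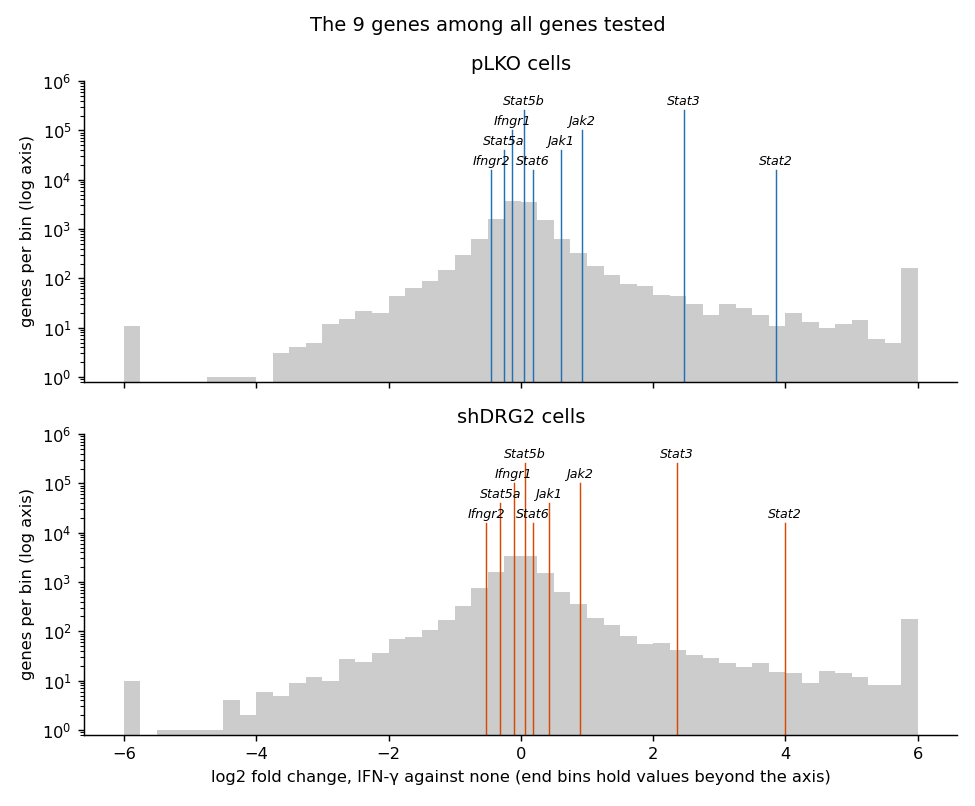
Distribution of log2 fold changes after IFN-γ over all 13500 genes tested (grey bars, log axis, bins of 0.25) in pLKO cells above and shDRG2 cells below, with a line at the value of each of the 9 genes. Stat2 and Stat3 stand in the sparse right tail, Jak2 and Jak1 nearer the centre on that side, Ifngr2 on the left side, and the other 4 close to 0.

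Levels between genes were compared per kilobase of annotated exon. Without IFN-γ the order in pLKO cells was Stat6 (25.3 ± 1.67 CPM per kb, SD, n = 2), Jak1 (19.5 ± 0.515), Ifngr2 (12.9 ± 1.26), Stat5b (10.6 ± 1.07), Jak2 (10.1 ± 0.329), Stat3 (7.01 ± 0.497), Stat5a (4.43 ± 0.395), Ifngr1 (3.85 ± 0.0972) and Stat2 (2.47 ± 0.458). The libraries of neighbours overlapped for Stat5b and Jak2 and lay apart for the other pairs. The order was the same in shDRG2 cells, from Stat6 at 25.8 ± 1.14 to Stat2 at 2.66 ± 0.201 CPM per kb. With IFN-γ Stat2, the lowest of the 9 before, stood among the top pair with Stat3. In pLKO cells Stat3 was at 38.5 ± 3.08 and Stat2 at 36.0 ± 5.83 CPM per kb, and in shDRG2 cells Stat2 was at 42.5 ± 0.328 and Stat3 at 40.2 ± 4.46, with overlapping libraries in each line. Ifngr1 and Stat5a were the lowest pair with IFN-γ in both lines, between 3.50 and 3.84 CPM per kb. Ifngr2 exceeded Ifngr1 per kilobase 3.08-fold and 3.66-fold in pLKO libraries and 2.75-fold and 2.65-fold after IFN-γ. Divided by the longest transcript instead, Stat6 and Jak1 overlapped without IFN-γ (29.5 ± 1.94 and 28.8 ± 0.759 in pLKO cells), and Stat3 moved above Jak2. With IFN-γ that divisor put Stat3 first in both lines, at 60.7 ± 4.85 in pLKO and 63.4 ± 7.03 in shDRG2 cells. By the same divisor Ifngr2 exceeded Ifngr1 by less, at 13.1 against 5.19 in pLKO cells and 9.60 against 4.72 after IFN-γ.

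**Figure D4:**
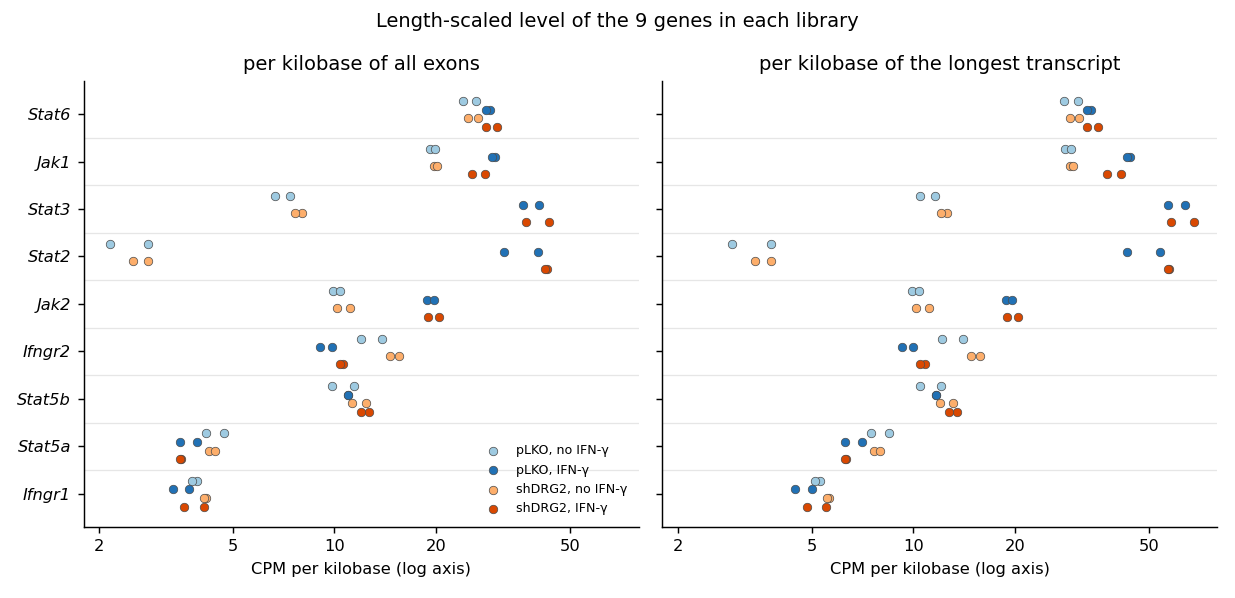
Level of each gene per library in CPM per kilobase on a log axis, divided by the length of all annotated exons (left) or of the longest transcript (right), with genes sorted by their mean over all libraries on the left. Stat2 and Stat3 cross most of the other genes between the unstimulated (pale) and stimulated (dark) libraries.

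No difference between shDRG2 and pLKO cells passed the edgeR test in any of the 9 genes. Without IFN-γ 0 of 9 were called, beside 1.20% of all genes, 0.467% higher and 0.733% lower. With IFN-γ 0 of 9 were called, beside 1.67% of all genes, 0.504% higher and 1.17% lower. These shares are unstable: the 162 genes called without IFN-γ became 37 and 61 without pLKO replicates 1 and 2, 27 and 61 without shDRG2 replicates 1 and 2, and 678 with no filter on low counts. Leaving out shDRG2 IFN-γ replicate 2 gave 103. The 226 genes called with IFN-γ became 86 and 123 without pLKO IFN-γ replicates 1 and 2, 44 and 58 without shDRG2 IFN-γ replicates 1 and 2, and 653 with no filter. At an unadjusted p under 0.05 the counts were 1 and 0 of 9, and DESeq2 also called 0 in each. The lone gene was Ifngr2, with 45.4 and 52.1 CPM in pLKO against 58.4 and 54.9 CPM in shDRG2 cells (0.22, interval 0.02 to 0.42, adjusted p = 0.327). Ifngr2 was higher in both shDRG2 libraries with IFN-γ too, at 0.15 (interval -0.05 to 0.35, adjusted p = 0.592). With IFN-γ the largest value was that of Stat2, 189 and 238 CPM in pLKO against 253 and 250 CPM in shDRG2 cells (0.24, interval -0.04 to 0.52, adjusted p = 0.522). This value rested on the pLKO IFN-γ libraries: it was 0.08 without replicate 1, where the Stat2 value was no longer the largest, and 0.41 without replicate 2. Jak1 had the lowest value with all libraries, 216 and 212 against 203 and 185 CPM (-0.14, interval -0.31 to 0.02, adjusted p = 0.518). The libraries of the lines lay apart in each of these comparisons, as they did for 3 of the 9 genes in all without and 4 with IFN-γ. With 2 libraries a group this can occur without a difference. How often it occurred over all genes was not counted, so it is not read as a difference. Without IFN-γ 8 of the 9 values were above 0, and the median was 0.10 beside 0.01 over all genes. With IFN-γ 7 were above 0, with a median of 0.06 beside 0.00. The share of all genes above 0 was not counted. The 9 values without IFN-γ rest on the same libraries. Without pLKO replicate 1 those of Jak1, Stat2 and Stat6 were -0.0024, -0.08 and -0.04. Both comparisons of the lines bound the differences: the widest end of any interval was a 1.35-fold difference without and a 1.43-fold difference with IFN-γ.

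The IFN-γ responses of the lines were compared by the difference of their log2 fold changes. None of the 9 was called by edgeR or by DESeq2, none had an unadjusted p under 0.05, and 1 of 13500 genes (0.00741%) was called by edgeR. The largest difference was -0.17 for Jak1 (interval -0.41 to 0.06) and the next 0.13 for Stat2 (interval -0.30 to 0.56), each with an adjusted p of 1.00. The intervals of the 9 genes reached at most a 1.48-fold difference between responses. They limit the size of a difference and do not show that the responses were equal.

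**Figure D5:**
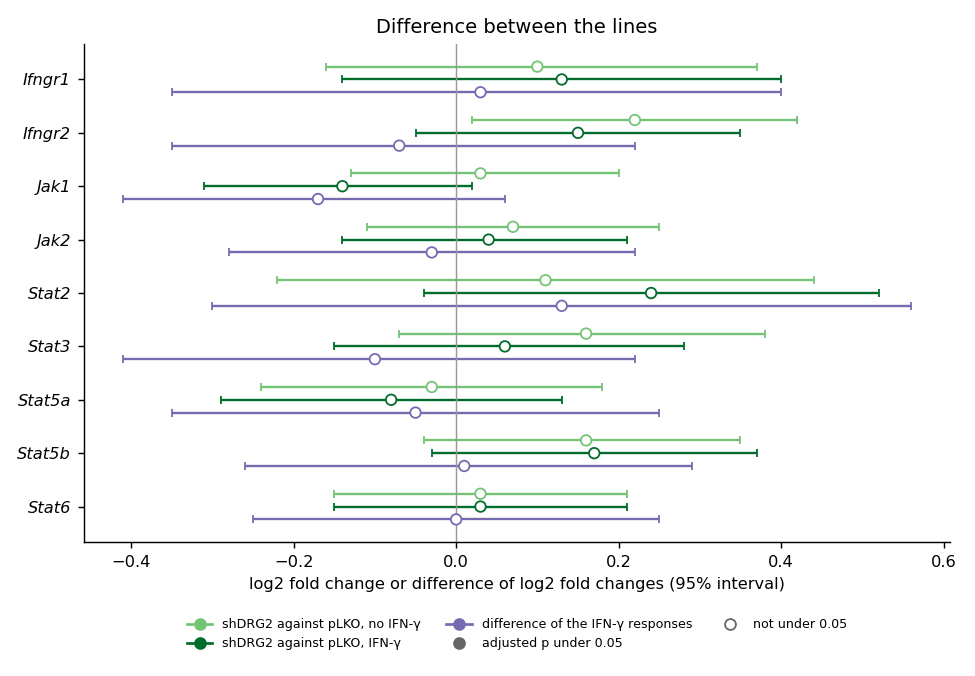
Log2 fold change of shDRG2 against pLKO without (light green) and with IFN-γ (dark green), and how far the IFN-γ responses differ (purple), with 95% intervals. All points are open because none passed the adjusted threshold, and all but 1 of the intervals include 0, the exception being Ifngr2 without IFN-γ.

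The remaining kinases rose as well. Jak3, which serves receptors with the common gamma chain, had 1.19 and 1.5 CPM in pLKO libraries and 4.56 and 4.38 CPM after IFN-γ (log2 1.73, SE 0.214, adjusted p = 0.000179). The shDRG2 libraries had 2.02 and 1.67 CPM, and 4.80 and 5.39 CPM after IFN-γ (1.46, SE 0.206, adjusted p = 0.000382). Tyk2, the partner of JAK1 at the type I interferon receptor, rose by 0.33 in pLKO (adjusted p = 0.0178) and 0.35 in shDRG2 cells (adjusted p = 0.0134). Its call was lost without pLKO replicate 1 (adjusted p = 0.142) or either pLKO IFN-γ replicate (0.0735 and 0.0552). In shDRG2 cells the call was lost without either unstimulated replicate (0.0597 and 0.0504) or IFN-γ replicate 1 (0.0853).

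Of 40 other receptor chains that use these kinases 20 could be tested. With IFN-γ 8 rose and 3 fell in each line, with medians of 0.90 in pLKO and 0.54 in shDRG2 cells, beside 0.01 and 0.00 over all genes. Over all genes 15.4% were called higher and 12.7% lower in pLKO, and 16.2% and 15.2% in shDRG2 cells, so the share of the chains that fell was near the background. Il12rb1, a chain of the IL-12 and IL-23 receptors, went from 0.0611 and 0.0938 CPM to 9.04 and 12.5 CPM in pLKO cells, and from 0 in both libraries to 6.46 and 5.77 CPM in shDRG2 cells. Il15ra, the IL-15-presenting chain, rose by 3.23 and 3.76 on the log2 scale, and Lifr, the receptor chain for leukaemia inhibitory factor that signals to STAT3, rose by 1.53 and 1.59. Cntfr, the ciliary neurotrophic factor receptor, fell by 2.05 in pLKO (77.5 and 83.5 to 18 and 20.9 CPM) and fell by 2.26 in shDRG2 cells (78.1 and 75.8 to 14.5 and 17.4 CPM). Between the lines 2 of the 20 chains were higher in shDRG2 cells either way and none lower. Over all genes 0.467% were called higher without and 0.504% with IFN-γ, and 0.733% and 1.17% lower. Lifr had 2.90 and 3.35 CPM in pLKO and 5.00 and 5.50 CPM in shDRG2 cells (0.75, adjusted p = 0.0384), and with IFN-γ 8.86 and 9.19 against 15.8 and 15.9 CPM (0.81, adjusted p = 0.0112). The growth hormone receptor gene Ghr, which signals through JAK2 and STAT5, had 3.85 and 3.91 against 9.73 and 7.28 CPM (1.14, adjusted p = 0.0172), and with IFN-γ 5.49 and 5.24 against 11.9 and 9.57 CPM (1.00, adjusted p = 0.0215). The Lifr calls were lost when any 1 of the 4 libraries compared was left out, with adjusted p-values up to 0.243 without and 0.105 with IFN-γ, and without IFN-γ also when a stimulated shDRG2 library was left out (0.0721 and 0.0722), with library size only (0.0622) or with only the 4 libraries compared (0.147). The Ghr call without IFN-γ was lost without either pLKO replicate (0.116 and 0.105) or shDRG2 replicate 1 (0.156). With IFN-γ it was lost without any 1 of the 4 libraries, at up to 0.193.

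Of 38 ligand genes 9 could be tested, of which 4 rose in each line and 1 fell in pLKO cells, beside the same shares over all genes. Il15 was the one among them that averaged 1 CPM and passed, from 0.458 and 0.438 to 1.48 and 1.95 CPM in pLKO and from 0.684 and 0.504 to 2.56 and 2.13 CPM in shDRG2 cells. Of 22 negative regulators tested, 4 rose and 6 fell in each line. The share that rose was near the 15.4% and 16.2% of all genes called higher. The share that fell was above the 12.7% and 15.2% called lower. Socs1, an inhibitor that binds JAK1 and JAK2 directly, went from 0.672 and 0.532 to 51.4 and 61.1 CPM in pLKO and from 0.466 and 0.620 to 64.8 and 69.6 CPM in shDRG2 cells. Socs3, which binds gp130 and JAKs, rose 6.47-fold and 6.51-fold. Usp18, which blocks the type I interferon receptor, rose 16.4-fold and 23.0-fold. Socs2, an inhibitor of growth hormone signalling, fell by 1.46 in pLKO and fell by 2.08 in shDRG2 cells on the log2 scale. No ligand or negative regulator was called between the lines by edgeR, beside 1.20% of all genes without and 1.67% with IFN-γ.

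Of 22 STAT partners, coactivators and import factors tested, 7 rose and 1 fell in pLKO and 8 rose and 2 fell in shDRG2 cells, beside 28.1% and 31.4% of all genes called in either direction. Irf9, the DNA-binding partner of STAT2, rose 4.0-fold and 4.02-fold, from 14.8 and 16.9 to 63.8 and 63.4 CPM in pLKO cells. Nmi, a STAT-interacting protein, rose 9.18-fold and 9.96-fold. Of 19 tested genes known as targets of STAT3, STAT5 or STAT6, 6 rose and 3 fell in pLKO and 7 rose and 4 fell in shDRG2 cells. Over all genes 15.4% were called higher and 12.7% lower in pLKO, and 16.2% and 15.2% in shDRG2 cells. The medians of the list were 0.12 and 0.35 beside 0.01 and 0.00 over all genes. Socs2, given above, is on this list too and was among those that fell in both lines, and Socs3 among those that rose. Bcl6, a transcriptional repressor, rose 5.86-fold and 6.14-fold, and Osmr, the oncostatin M receptor chain, rose 2.88-fold and 2.83-fold. Pim1, a serine kinase gene, rose 3.63-fold in pLKO and 5.37-fold in shDRG2 cells. With IFN-γ Pim1 was the single gene of this list called between the lines, beside 1.67% of all genes. It had 30.7 and 32.2 CPM in pLKO and 48.8 and 48.7 CPM in shDRG2 cells (0.63, adjusted p = 0.0470). That call was lost when any 1 of the 4 libraries was left out (adjusted p up to 0.259), without either unstimulated shDRG2 library (0.0536 and 0.0509), with upper-quartile scaling (0.0616) and with library size only (0.0877).

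The patterns most like those of the called members were found among 9634 genes of at least 5 CPM, by the root mean square difference of centred log2 CPM over the 8 libraries, as a description. C1ra, a complement protease gene, was the nearest to Stat2, with a difference of 0.0753, followed by H2-T22 at 0.143 and Il18bp at 0.147. Parp3 (0.0947), the complement gene C2 (0.10) and Tmem229b (0.108) were nearest to Stat3. Within a difference of 0.1 Stat2 and Stat3 had 1 gene each, whereas Jak2 had 43 and Jak1 121. Among the called members this count tended to be higher where a gene's own variation over the libraries was smaller. The root mean square of that variation was 1.95 for Stat2, 1.20 for Stat3, 0.454 for Jak2, 0.263 for Jak1, 0.264 for Ifngr2 and 0.155 for Stat5a. The relation was not tested, and Jak1 and Ifngr2 had different counts at nearly the same variation. The nearest to Jak2 were Bloc1s6, Aida and Pikfyve, between 0.0486 and 0.0551, and the nearest to Jak1 were Mad2l2, Chmp5 and Elmo2, between 0.0466 and 0.0543. Ifngr2 had 79 genes within 0.1, led by Paqr7, Afmid and Arrb2, and Stat5a had 488, led by Rp9, Optn and Dnajb14. These genes share the libraries and their scaling with the members.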

How the data were processed

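The authors deposited a table of estimated counts per gene for 8 libraries, whose column totals differ and show no normalisation. Per the submitters' processing notes, STAR and Salmon 1.5.2 were used with mm10, with no role or order given. Per the labels' protocols the kit was TrueSeq RNA, and 2 sequencer models are named without saying which library was read on which, so a difference of sequencer between groups could not be checked. The authors' annotation release is not given in the sources used here. Columns were matched to libraries by title. Of 45583 entries, 27 named as dates were left out, with 0.204% to 0.212% of a library's counts.

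Counts were rounded and fitted in edgeR 4.0.16 (R 4.3.3) after filterByExpr and TMM scaling, as a quasi-likelihood model with 1 coefficient per group and no block, with 4 residual degrees of freedom. P-values are two-sided and Benjamini-Hochberg adjusted over 13500 genes. The fit was tested on simulated data. Alternatives were other scalings, no filter, DESeq2 1.42.0, a replicate block, only the libraries compared, and leaving out each library. Positions and exon lengths are from GENCODE M21, which matched 41827 names (91.8%), and promoters from RefSeq. Depth was 25422758 to 36654519 counts per library, and with 2 libraries a group the spread rests on few samples.

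The members and gene lists were chosen with earlier results of these data known. All 9 members are named. In other lists, named genes are among the 5 called genes with the largest change in a comparison, with a mean of at least 1 CPM.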

Additional observations from a re-analysis of the deposited data

How the results depend on the processing

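The number of the 9 genes called was 5 or 6 in each line after IFN-γ and 0 in the other 3 comparisons under all the alternatives run. Ifngr2, Jak1, Jak2, Stat2 and Stat3 kept direction and call in each, and Stat5a alone changed its call. With the replicate number as a block, Stat5a was also called in pLKO cells (-0.26, adjusted p = 0.0192). The labels do not say that equal numbers share a batch, and deviations of equal numbers correlated across genes at 0.107 to 0.274 between groups. The block raised the calls over all genes to 673 from 162 without and 675 from 226 with IFN-γ between the lines, and to 2 from 1 for the difference of responses.

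Without a filter those 3 counts were 678, 653 and 58, and with DESeq2 312, 325 and 9. With only the 4 libraries compared, the count between the lines with IFN-γ was 124. Leaving out 1 library gave 27 to 167 without IFN-γ, 44 to 202 with it, 2482 to 3749 for IFN-γ in pLKO and 2720 to 4297 in shDRG2 cells, and 1 to 2 for the difference. Signs changed only for values that passed no test. For Stat6 the difference of responses was 0.01 with DESeq2 size factors, 0.0016 with upper-quartile scaling, 0.02 with library size only, 0.0050 without a filter and 0.01 with DESeq2. Leaving out 1 library gave ranges across 0 for IFN-γ in pLKO cells of Stat5b -0.05 to 0.16 (log2). Between the lines without IFN-γ they were Jak1 -0.0024 to 0.06, Stat2 -0.08 to 0.31, Stat5a -0.13 to 0.06 and Stat6 -0.04 to 0.10. Between the lines with IFN-γ they were Jak2 -0.02 to 0.09, Stat3 -0.05 to 0.17, Stat5a -0.16 to 0.0023 and Stat6 -0.02 to 0.08. For the difference of responses they were Ifngr1 -0.08 to 0.12, Ifngr2 -0.17 to 0.04, Jak2 -0.09 to 0.03, Stat2 -0.07 to 0.32, Stat3 -0.21 to 0.01, Stat5a -0.14 to 0.06, Stat5b -0.09 to 0.13 and Stat6 -0.07 to 0.08.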
